A study of Mus musculus and Rattus norvegicus with 96 samples.

Results

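Por, Cyb5a, Alas1, Ephx1, Aldh1a1, Aldh1a7 and Akr1b7 were followed in mouse liver after phenobarbital, in 4 preparations of the same tissue. These are 7 of the 24543 genes listed in the count table, chosen by name as genes that serve cytochrome P450 enzymes or that oxidize or reduce aldehydes. The choice was made with earlier results of these data known. All 7 were among the 13370 genes that passed the filter on low counts (a geometric mean above 1 count per library), although Akr1b7 passed only through the phenobarbital libraries, since its control libraries held 0 to 3 counts each.

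The mice were male B6C3F1 animals of 10 to 11 weeks, and 6 of them drank phenobarbital (PB) at 600 ppm for 7 days while 6 drank the vehicle, water (Con). Total RNA depleted of ribosomal RNA was sequenced from 4 preparations of each of the 12 livers, which gave 48 libraries in 8 groups of 6. FR was frozen tissue, and FR>FFPE was frozen tissue later fixed in 10% formalin for 18 to 24 h and embedded in paraffin. FR>OH was frozen tissue later held in 70% ethanol and embedded, and FFPE was tissue put straight into 10% formalin for 18 to 24 h and embedded. RNA of FR samples was extracted with RNAzol and RNA of embedded samples with a kit for fixed tissue. Preservation and extraction therefore cannot be told apart in comparisons with FR.

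A microsomal P450 enzyme holds a heme group and takes electrons from NADPH through the P450 oxidoreductase Por, and cytochrome b5, encoded by Cyb5a, can pass an electron in some of these reactions. Alas1 makes the first committed precursor of liver heme, and Ephx1 adds water to the epoxides that P450 enzymes form. Aldh1a1 oxidizes retinal to retinoic acid, Aldh1a7 is a closely related dehydrogenase of rodents, and Akr1b7 is an aldo-keto reductase that reduces aldehydes. Phenobarbital is a classic inducer of liver P450 genes through the nuclear receptor CAR.

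Levels are given as CPM, a gene's counts scaled to a common total of the counts assigned to genes in a library. FR libraries had totals of 11737338 to 13702672, those of FFPE 4952797 to 6760422, those of FR>FFPE 5534973 to 10681783 and those of FR>OH 8167321 to 11539022, and a mean of 48.5%, 25.1%, 37.2% and 38.7% of all reads fell on genes, in that order. The labels were checked on Cyp2b10, the marker P450 of CAR activity, which was at 0 to 2.45 CPM in the 24 Con libraries and at 1078 to 2289 CPM in the 24 PB libraries, with no overlap. The summed hepatocyte markers (6 of 6 detected) were 57226 to 88898 CPM in FR Con and 40346 to 75668 CPM in FR PB. The sums for cholangiocytes, Kupffer cells, endothelial cells, stellate cells, lymphocytes and erythroid cells overlapped between Con and PB in every preparation. Of 4 pancreas markers, 2 or 3 were at 0 in every library of each group. The rest were not, and the pancreas sum was 22.4 to 33.4 CPM in FR Con and 16.4 to 34.85 CPM in FR PB.

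Of the 6 genes that were well expressed in Con livers, 5 passed the test given below as higher in PB in every preparation. Alas1 did not pass, and whether it differed is not settled. In FR, the mean CPM ratio of PB over Con was 5.20 for Por, 3.63 for Aldh1a1, 3.54 for Ephx1, 2.55 for Cyb5a, 2.16 for Alas1 and 2.01 for Aldh1a7, while Akr1b7 went from near 0 to a few CPM and is described apart, since it passed the filter through its PB libraries alone. A gene was a DEG (differentially expressed) where edgeR's quasi-likelihood test over all genes gave an adjusted p (Benjamini-Hochberg) below 0.05 and the fold change was 2 or more. The share of all tested genes that were DEGs higher in PB was 1.74%, 1.65%, 1.71% and 2.12% (FR, FFPE, FR>FFPE and FR>OH, in that order here and below), against 5 of these 6 genes in each. Since the genes were chosen with earlier results of these data known, such counts describe them and are not a test of the set. The median log2 fold change of the 6 genes was 1.59, 1.45, 1.52 and 1.76, beside a median over all tested genes of 0.004, 0.008, 0.06 and 0.02. Con and PB libraries did not overlap for 5, 4, 5 and 5 of the 6 genes, where 4.2%, 2.12%, 3.19% and 4.26% of all genes were higher in PB without overlap. In these whole-tissue levels, a change in the share of a cell type and a change in RNA per cell cannot be told apart. The p-values came from a fit to the libraries of all preparations, with no term for the mouse. Preparations of the same liver entered it as independent libraries, so the spread behind these p-values is not that between mice alone. With only the compared groups in the fit, each mouse had a single library. There, Por, Cyb5a, Ephx1, Aldh1a1 and Aldh1a7 were again DEGs in each preparation, and Alas1 was not.

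**Figure D1:**
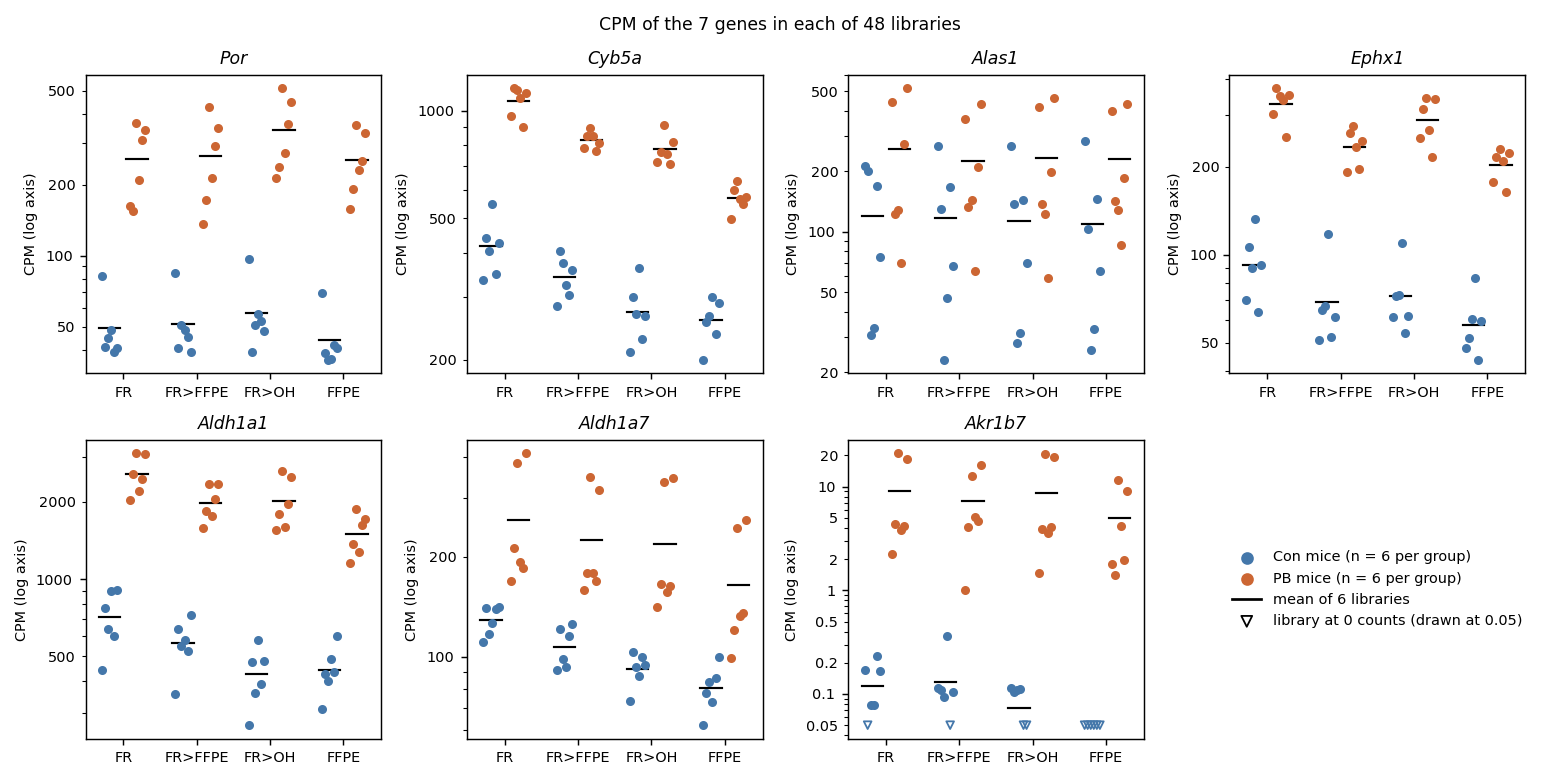
Level of each of the 7 genes in every library, as CPM on a log axis, by preparation and treatment, with points for libraries (6 per group), black bars for group means and open triangles for libraries with 0 counts. Con and PB points are apart for Por, Cyb5a, Ephx1, Aldh1a1 and Akr1b7 in every preparation, overlap at the edge for Aldh1a7 in FFPE and overlap for Alas1 throughout.

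Por, the reductase that supplies electrons to all microsomal P450 enzymes, lies on chromosome 5 from 135689145 to 135735327 on the plus strand of GRCm38 (start and stop as in the count table, whose stops are 1 base past the end), with an exonic length of 2636 bases. The 6 FR Con livers held 39.1 to 81.9 CPM with a median of 43.0, and the 6 FR PB livers held 155 to 364 CPM with a median of 259. Every PB liver was above every Con liver, and the mean was 257 ± 92.7 CPM in PB against 49.3 ± 16.3 CPM in Con (SD, n = 6 each). The log2 fold change of Por in FR was 2.38 (SE 0.27, edgeR adjusted p = 8.19e-09). In FFPE the Con livers ranged from 36.2 to 69.7 CPM and the PB livers from 157 to 358 CPM, and the log2 fold change was 2.53 (edgeR adjusted p = 3.59e-09). The ratios of mean CPM in FR, FFPE, FR>FFPE and FR>OH were 5.20, 5.77, 5.15 and 5.96. The highest mean was that of FR>OH PB, 341 ± 121 CPM (SD, n = 6), but the 4 PB groups overlapped one another, as did the 4 Con groups.

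The 250 bases upstream of the Por start are shown because Por had the largest ratio among the genes that were well expressed in Con livers. The sequence is RefSeq's for GRCm38.p6, chr5:135688895-135689144 on the plus strand, written 5′ to 3′ with the motif GGGCGG, a GC box, in capitals on either strand (CCGCCC on the other strand).
Por: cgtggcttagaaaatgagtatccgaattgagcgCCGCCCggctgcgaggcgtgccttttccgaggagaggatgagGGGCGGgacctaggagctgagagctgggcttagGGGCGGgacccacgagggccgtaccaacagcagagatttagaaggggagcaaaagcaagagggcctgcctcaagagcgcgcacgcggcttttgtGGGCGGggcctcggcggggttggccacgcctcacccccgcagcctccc
The motif begins at −217, −175, −142 and −48 from the start, and 32.7% of 32851 RefSeq promoters of the same length hold it at least once. The hexamers AGGTCA and AGTTCA, repeat units bound by nuclear receptors, which occur in 14% and 11.8% of these promoters, were not found in the Por window on either strand.

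Cyb5a, which carries the electron of cytochrome b5, had an exonic length of 833 bases and was the most abundant of the 7 genes per kilobase in FR Con livers, at 500.2 CPM per kb against 345 for Aldh1a1, 62.4 for Aldh1a7, 53.2 for Ephx1, 35.3 for Alas1, 18.7 for Por and 0.094 for Akr1b7. Its level was 335 to 547 CPM in FR Con (median 414) and 903 to 1158 CPM in FR PB (median 1104). The groups did not overlap, and among the PB groups FR lay wholly above FR>FFPE and FFPE lay wholly below the other 3, while FR>OH overlapped both FR and FR>FFPE. For Cyb5a the log2 fold change was 1.35, 1.14, 1.28 and 1.52, with an SE of 0.11 in FR (edgeR adjusted p = 4.94e-13 there). Its spread between mice was small in PB, with an SD of 0.109 on the log2 scale against 0.530 for Por.

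Of the 12 tested genes in a list of 13 for electron transfer to P450 enzymes, 3 were DEGs higher in PB in FR, namely Por, Cyb5a and Nqo1, and 5 passed the adjusted p alone, all higher, where 5.85% of all genes tested were higher by adjusted p. Nqo1, a cytosolic quinone reductase, was at 1.78 CPM in FR Con and 4.07 CPM in FR PB (log2 fold change 1.19, SE 0.35, edgeR adjusted p = 0.0227), and in FFPE it did not pass (1.25, edgeR adjusted p = 0.0652). The median log2 fold change of the list in FR was 0.24, and 0.18 without Por and Cyb5a.

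Alas1 lies on chromosome 9 from 106233455 to 106247955 on the minus strand, with an exonic length of 3399 bases. Its FR Con livers ranged from 30.7 to 212 CPM with a median of 122, and its FR PB livers from 69.5 to 518 CPM with a median of 200.4. The groups overlapped in all 4 preparations. The mean was 120 ± 83.6 CPM in Con and 259 ± 186 CPM in PB (SD, n = 6 each), a ratio of 2.16, and the log2 fold change of 1.11 had a 95% interval from −0.10 to 2.31 (edgeR adjusted p = 0.304). The ratios in FFPE, FR>FFPE and FR>OH were 2.10, 1.92 and 2.07, with edgeR adjusted p of 0.357, 0.449 and 0.293. A change of the size measured for Ephx1 was within the interval in FR, so that the data do not settle whether Alas1 differed between Con and PB.

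The width of that interval follows the spread of Alas1 between mice, which was the largest of the 6 genes well expressed in Con. The highest liver held 5.04 to 11.6 times the lowest within the 8 groups. In Con, liver 8A was highest and liver 8D lowest in all 4 preparations, and in PB, 80B, 18B and 75C ranked highest in that order and 20D lowest in all 4. The 4 PB values of 80B were 518, 432, 431 and 462 CPM (FR, FFPE, FR>FFPE and FR>OH) and those of 20D were 69.5, 85.9, 63.6 and 58.7 CPM. With the mean of each preparation taken out, the SD of the log2 level between mice was 1.28 in Con and 1.05 in PB. Between preparations of 1 mouse it was 0.232 and 0.167.

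The heme list, 16 of 16 genes tested, held 0 DEGs by edgeR for PB in FR, and 2 of its genes passed the adjusted p alone, both higher, beside the 5.85% of all genes. Its median log2 fold change was 0.11, and 0.09 without Alas1.

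**Figure D2:**
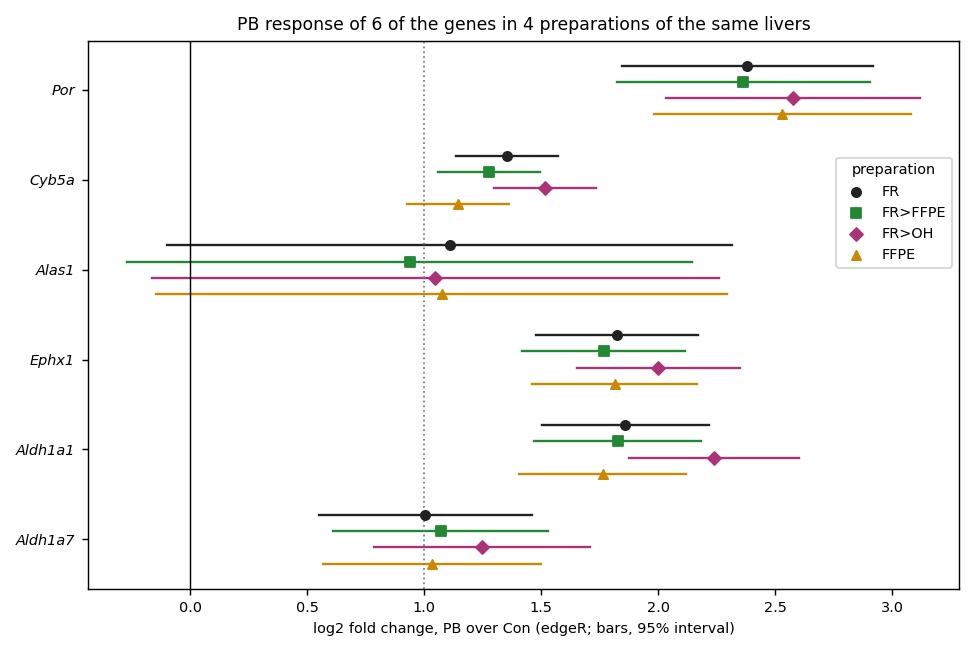
Log2 fold change of PB over Con for the 6 genes with counts well above 0 in Con livers, with 95% intervals from edgeR, for FR, FR>FFPE, FR>OH and FFPE; the dotted line marks a fold change of 2. Por lies highest at 2.36 to 2.58, Aldh1a7 lies at 1.00 to 1.25, and the intervals of Alas1 are the widest.

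Ephx1, the microsomal epoxide hydrolase, lies on chromosome 1 from 180989556 to 181017570 on the minus strand, with an exonic length of 1741 bases, of which 32 stretches of 50 bases were shared with the gene model Gm36961. The FR Con livers held 63.8 to 132 CPM (median 91.4), and the FR PB livers held 252 to 371 CPM (median 344). No PB liver fell into the Con range in any preparation. For Ephx1 the log2 fold change was 1.82, 1.81, 1.77 and 2.00, with an SE of 0.18 in FR (edgeR adjusted p = 7.27e-11 there), and the ratios of mean CPM were 3.54, 3.52, 3.39 and 4.00. Of 3 tested epoxide hydrolases in a list of 5, Ephx1 alone passed the adjusted p, in all 4 preparations.

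Aldh1a1, the retinal dehydrogenase, lies on chromosome 19 from 20601982 to 20643463 on the plus strand, and Aldh1a7 lies beside it on the minus strand from 20692953 to 20727557. The coding sequences match at 1380 of 1506 bases (91.6%), and 151 stretches of 50 bases (7.5%) occur in both transcripts, so some reads could not be assigned to one of the pair and their estimated counts are partly uncertain. The upstream sequences of this pair are shown because the near copies differed in their response. They are RefSeq's for GRCm38.p6, chr19:20601718-20601967 on the plus strand and chr19:20727557-20727806 on the minus strand, each written 5′ to 3′ in the direction of the gene. Capitals mark CCAAT, the CCAAT box, and ATGCAAAT, the octamer motif.
Aldh1a1: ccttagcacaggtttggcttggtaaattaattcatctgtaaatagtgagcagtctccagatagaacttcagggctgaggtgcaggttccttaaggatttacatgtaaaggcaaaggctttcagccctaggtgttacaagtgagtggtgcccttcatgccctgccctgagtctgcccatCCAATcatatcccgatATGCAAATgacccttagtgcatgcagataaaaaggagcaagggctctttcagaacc
Aldh1a7: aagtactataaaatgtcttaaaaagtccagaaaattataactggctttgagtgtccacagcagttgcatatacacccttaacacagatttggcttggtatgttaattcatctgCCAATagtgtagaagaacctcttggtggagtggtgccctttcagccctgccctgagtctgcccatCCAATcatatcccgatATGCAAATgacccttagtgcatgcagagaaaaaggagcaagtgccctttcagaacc
The windows matched at 175 of 235 aligned bases (74.5%), and the longest identical run was 65 bases starting at −94 in both. Both held CCAAT at −72 and ATGCAAAT at −56, which 33.9% and 1.60% of the 32851 promoters hold, and Aldh1a7 held another CCAAT at −137. Positions count back from the 3′ end of each window, which for Aldh1a1 lies upstream of the start given above. Another RefSeq window of Aldh1a1, chr19:20492333-20492582, held neither motif and matched that of Aldh1a7 at 138 of 229 aligned bases (60.3%).

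Aldh1a1 was at 441 to 905 CPM in FR Con livers (median 704.4) and at 2028 to 3090 CPM in FR PB livers (median 2510). In FFPE it was at 310.3 to 598 CPM in Con and at 1153 to 1869 CPM in PB. The groups were apart in all 4 preparations, and the log2 fold changes were 1.86, 1.76, 1.83 and 2.24, with an SE of 0.18 in FR (edgeR adjusted p = 1.05e-10 there). By the ratio of mean CPM this was 3.63, 3.39, 3.54 and 4.72.

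Aldh1a7 rose less. Its FR Con livers held 110.4 to 141 CPM (median 133) and its FR PB livers 169 to 409.5 CPM (median 202), and all PB livers were above all Con livers. In FFPE, the Con range of 62.1 to 99.4 CPM overlapped at its edge with the PB range of 99.1 to 257 CPM. Its log2 fold changes were 1.00, 1.03, 1.07 and 1.25, with an SE of 0.23 in FR, and the edgeR adjusted p was 0.00275, 0.00345, 0.00156 and 0.00017. The gene thus stood at the fold limit of 2, with CPM ratios of 2.01, 2.05, 2.10 and 2.37.

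Whether Aldh1a7 passed the fold limit turned on single livers. With each mouse left out in turn it was a DEG in 7, 9, 10 and 12 of 12 fits. Livers 80B and 20B held 409.5 and 384 CPM in FR, while the other 4 PB livers held 169 to 212 CPM. In FFPE they held 257 and 244 CPM, against 99.1 to 135 CPM. Without 80B the log2 fold change of Aldh1a7 was 0.83 in FR and 0.86 in FFPE, and without 20B it was 0.90 in FR>FFPE, each under the fold limit but with an edgeR adjusted p of at most 0.0165 over all leave-one-out fits. The library titles carry an L number from 1 to 5, shared by 9 or 10 libraries each and not explained there, and the FR PB libraries with the same number as FR Con were those of 18B and 18D only. With this number as a term the log2 fold change of Aldh1a7 was 0.56 in FR (edgeR adjusted p = 0.459), 0.89 in FFPE (edgeR adjusted p = 0.0309) and 1.17 in FR>OH (edgeR adjusted p = 0.0118). Within the L number of FR Con it was 0.56 (edgeR adjusted p = 0.0249), within that of FFPE Con 0.89 (edgeR adjusted p = 0.0253) and within number 5 of FR>OH 1.17 (edgeR adjusted p = 0.0765). In FR>FFPE the L number could not be told apart from treatment. Por, Cyb5a, Ephx1 and Aldh1a1 were DEGs in every one of these fits, with Por at 1.69 in FR in place of 2.38.

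Relative to Aldh1a1 in the same library, Aldh1a7 fell with PB. It stood at 19.1 ± 4.3% of the Aldh1a1 CPM in FR Con and 9.77 ± 2.46% in FR PB (SD, n = 6 each), with ranges of 14.1 to 25.1% and 7.5 to 13.3%. In FFPE the share was 18.5 ± 2.3% and 10.7 ± 2.7%, in FR>FFPE 19.6 ± 3.6% and 11.1 ± 2.5%, and in FR>OH 22.6 ± 4.6% and 10.5 ± 2.2%. The ranges nearly met in FFPE and did not overlap in any preparation. The difference of mean log2 ratios was −0.97, −0.82, −0.84 and −1.10 in FR, FFPE, FR>FFPE and FR>OH. An exact two-sided permutation test gave p = 0.00216 in each, also after adjustment over the 4 preparations, which is the smallest p that 6 against 6 mice allow. These ratios do not depend on library size, but the 4 preparations hold the same livers.

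**Figure D3:**
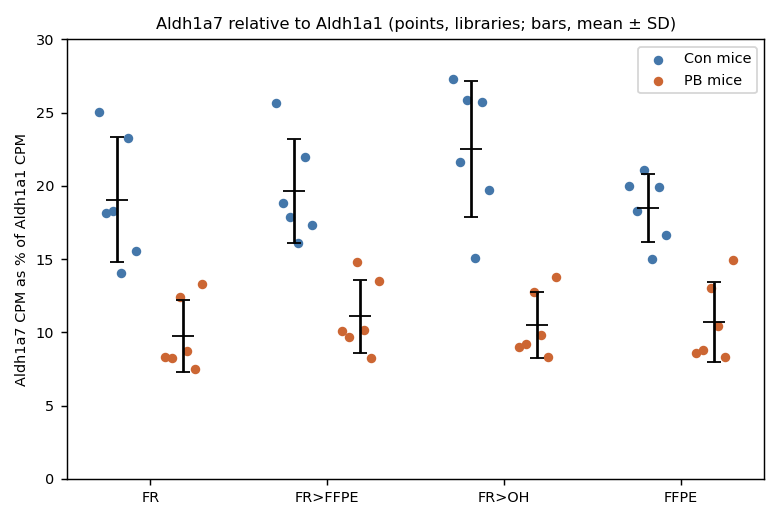
CPM of Aldh1a7 as a percentage of the CPM of Aldh1a1 in each library, by preparation and treatment, with bars for the mean ± SD of 6 libraries. The Con means lie at 18.5 to 22.6% and the PB means at 9.77 to 11.1%, with no PB library reaching a Con library of its own preparation.

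Of 16 tested aldehyde dehydrogenases in a list of 19, Aldh1a1 and Aldh1a7 were the only DEGs for PB in each of the 4 preparations, and the other 14 had a median log2 fold change of 0.04 in FR. Of 25 tested genes for retinoid handling in a list of 28, 1 was a DEG in FR, where 2% of all tested genes were. That gene was Cyp26a1, which breaks down retinoic acid, at 1.16 CPM in FR Con and 10.5 CPM in FR PB (log2 fold change 3.16, SE 0.36, edgeR adjusted p = 5.79e-09). It rose in the other 3 preparations too, by 2.56, 2.65 and 3.84 on the log2 scale.

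Akr1b7, the aldo-keto reductase, lies on chromosome 6 from 34412362 to 34423138 on the plus strand, with an exonic length of 1281 bases that shares 31 stretches of 50 bases with other transcripts, 20 of them with the gene model Gm15806. It was at or near 0 in Con, with 0 counts in 1, 6, 1 and 2 of 6 livers in FR, FFPE, FR>FFPE and FR>OH, and at most 3 counts in any library. The FR PB livers held 2.26 to 20.9 CPM (median 4.27), the FFPE PB livers 1.41 to 11.7 CPM (median 3.07), the FR>FFPE PB livers 1.01 to 16.3 CPM (median 4.85) and the FR>OH PB livers 1.47 to 20.4 CPM (median 3.98). Every PB library lay above every Con library.

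Summed over the 6 libraries of a group, Akr1b7 had 9 counts in FR Con and 693 in FR PB, which made the pooled CPM ratio 76.2 with a 95% counting interval of 40.2 to 167. In FR>FFPE the pooled ratio was 65 (29.8 to 177), and in FR>OH it was 129 (50.5 to 475). FFPE Con had 0 counts against 188 in FFPE PB, and with a floor of 3 counts over the group the gene was at least 61-fold higher (49.6-fold with the upper 95% counting limit of 0 counts in place of the floor). These intervals cover counting error only.

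The upstream sequence of Akr1b7 is shown because the gene had the largest ratio of the 7. Of the 6 genes whose upstream windows were searched (Cyb5a was not among them), it was the only one with a hexamer AGGTCA. That hexamer occurs in 14% of the 32851 promoters, and a role in the response was not tested. The sequence is RefSeq's for GRCm38.p6, chr6:34412112-34412361 on the plus strand, with AGGTCA on the other strand (TGACCT) and CCAAT in capitals.
Akr1b7: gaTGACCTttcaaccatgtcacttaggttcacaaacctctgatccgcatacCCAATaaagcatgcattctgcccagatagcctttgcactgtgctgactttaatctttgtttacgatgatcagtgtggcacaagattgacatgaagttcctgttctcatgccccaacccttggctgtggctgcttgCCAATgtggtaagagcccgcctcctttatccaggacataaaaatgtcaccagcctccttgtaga
The hexamer begins at −248, and CCAAT begins at −199 and −64. Direct repeats of AGGTCA and of AGTTCA with any 4 bases between the copies, which 0.0152% and 0.00913% of the 32851 promoters hold on either strand, were in none of these 6 windows.

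Of the 13 tested aldo-keto reductases other than Akr1b7, in a list of 16, 4 passed the adjusted p for PB in FR, all higher, beside the 5.85% of all genes. Akr1b7 was left out of this count because it passed the filter through its PB libraries alone. Besides Akr1b7 the DEGs were Akr1c19, at 11.5 CPM in Con and 29.0 CPM in PB (log2 fold change 1.33, edgeR adjusted p = 1.56e-05), and Akr1d1, the bile acid pathway's steroid 5-beta-reductase, at 100.9 CPM in Con and 236 CPM in PB (1.23, edgeR adjusted p = 2.26e-07). In FR>OH, 9 of these 13 genes passed the adjusted p, all higher, where 8.41% of all genes were higher. Their median log2 fold change was 0.54 there against 0.25 in FR.

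The order of the 6 PB livers was much the same in each preparation. Livers 20B and 80B were the highest pair in all 4 preparations for Por, Aldh1a1, Aldh1a7 and Akr1b7. For Akr1b7 in FR they stood at 20.9 and 18.5 CPM against 2.26 to 4.40 CPM in the other 4 livers. For Por in FR they stood at 364 and 341 CPM, followed by 75C at 309.5 CPM, and the ranks 20B, 80B, 75C and 20D were kept in all 4 preparations. Alas1 had a different order, with 20B outside the top 3 livers in all 4 preparations. The L numbers did not separate this pair from the rest in FFPE, where 20B shared its number with 18B, 18D and 20D, nor in FR>FFPE and FR>OH, where all 6 PB libraries had the same number. In Con, liver 8A had the highest Por and the lowest Cyb5a, Aldh1a1 and Aldh1a7 in all 4 preparations, and liver 21C had the highest Ephx1 in all 4.

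Between mice, the SD of the log2 level in PB was 1.33 for Akr1b7, 1.05 for Alas1, 0.550 for Aldh1a7, 0.530 for Por, 0.264 for Aldh1a1, 0.213 for Ephx1 and 0.109 for Cyb5a. Between preparations of 1 mouse it was 0.434, 0.167, 0.083, 0.115, 0.066, 0.075 and 0.063 in the same order, after the mean of each preparation was taken out. Thus, with preparation means taken out, each of the 7 genes varied more between PB mice than within 1 mouse. Shifts common to a whole preparation are not part of this comparison. In PB, Cyb5a was at −0.90 in FFPE relative to FR on the log2 scale, against its SD of 0.109 between mice. Por was at −0.02, against 0.530. For Aldh1a7 the SD between mice was 0.173 in Con and 0.550 in PB.

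**Figure D4:**
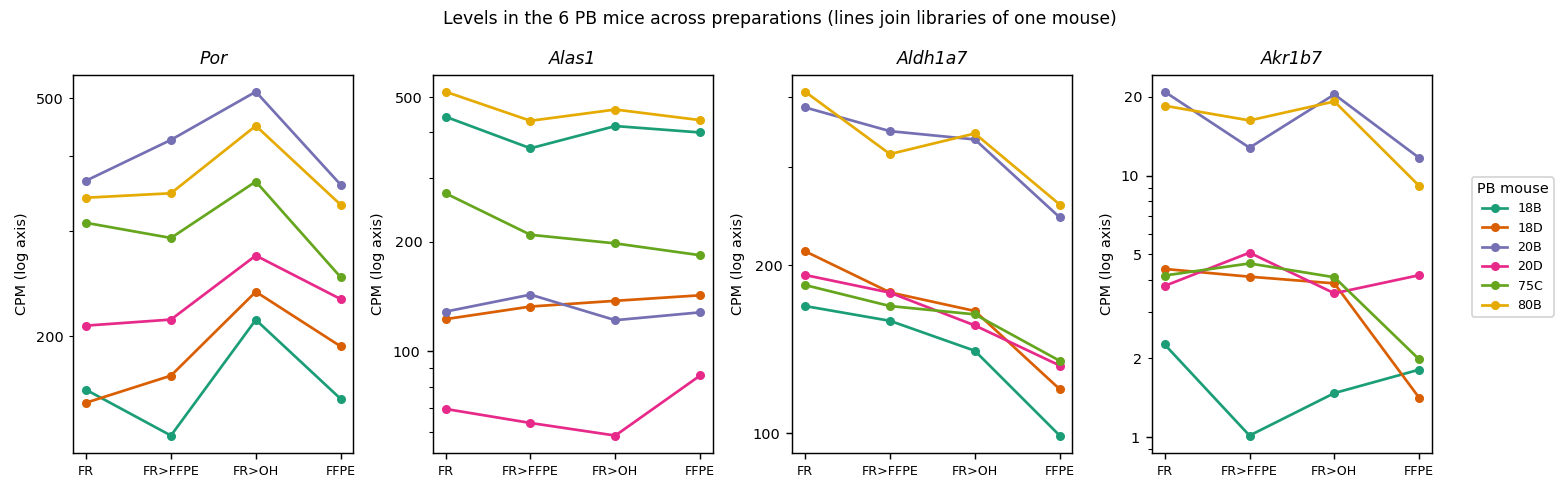
Level of Por, Alas1, Aldh1a7 and Akr1b7 in the 6 PB mice, as CPM on a log axis, in each preparation, with a line joining the libraries of 1 mouse. Mice 20B and 80B are the top pair for Por, Aldh1a7 and Akr1b7, and mice 80B and 18B are the top pair for Alas1.

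Deviations from the group means were described across the 48 libraries, which share 12 livers. Pearson's r of the log2(CPM + 1) deviations was 0.886 for Aldh1a7 with Akr1b7, 0.771 for Cyb5a with Aldh1a1, 0.743 for Cyb5a with Ephx1 and 0.706 for Por with Akr1b7. For Alas1 it was −0.576 with Cyb5a and −0.500 with Ephx1.

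The embedded preparations were then set against FR of the same treatment, which asks how fixation changes the level read from a liver. Cyb5a, Ephx1, Aldh1a1 and Aldh1a7 were lower in FFPE than in FR in both Con and PB livers, while Por and Alas1 did not pass the test in either. None of the 7 genes was a DEG, where 13.3% of all genes were DEGs in Con and 16.5% in PB. In Con the log2 fold change was −0.69 for Cyb5a (edgeR adjusted p = 7.03e-07), −0.68 for Ephx1 (0.000978), −0.68 for Aldh1a1 (0.00108) and −0.68 for Aldh1a7 (0.0124). In PB it was −0.90 for Cyb5a (edgeR adjusted p = 1.77e-09), −0.69 for Ephx1 (0.000614), −0.78 for Aldh1a1 (0.000213) and −0.65 for Aldh1a7 (0.0141). Por was at −0.17 in Con (edgeR adjusted p = 0.617) and −0.02 in PB (0.957), and Akr1b7 was at −0.83 in PB (0.207). By adjusted p alone 4 of 7 genes were lower in each treatment, where 13.1% of all genes were lower in Con and 14.7% in PB.

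The range of values shows these differences. Cyb5a stood at 335 to 547 CPM in FR Con and at most 301 CPM in FFPE Con, and at 903 to 1158 CPM in FR PB and 499 to 636 CPM in FFPE PB, with no overlap in either. Lower levels without overlap were seen for 2 genes in Con, Cyb5a and Aldh1a7, and for 3 genes in PB, Cyb5a, Ephx1 and Aldh1a1, where 7.64% and 8.02% of all genes were lower without overlap. In each of the 12 livers all 4 genes were lower in FFPE than in FR, with mean ratios of 0.581 ± 0.064 for Cyb5a, 0.610 ± 0.065 for Aldh1a1, 0.627 ± 0.055 for Ephx1 and 0.632 ± 0.065 for Aldh1a7 (SD, n = 12). For Por the mean ratio was 0.960, with 9 of 12 livers lower, and for Alas1 it was 0.934, also with 9 of 12 lower.

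Such levels depend on how libraries are scaled, since the median gene stood 0.32 higher on the log2 scale in FFPE than in FR in both treatments. Relative to that median Cyb5a was at −1.01 in Con and −1.22 in PB, Ephx1 at −1.0 and −1.01, Aldh1a1 at −1.0 and −1.10, Aldh1a7 at −1.0 and −0.97, and Por at −0.49 and −0.34. With the total of all reads as library size the median gene was at −0.64 in Con and −0.62 in PB, Por was at −1.13 (edgeR adjusted p = 0.00049) and −0.96 (edgeR adjusted p = 0.0019), and Cyb5a was at −1.65 and −1.84. The 4 genes kept a negative log2 fold change in FFPE under TMM factors, total reads, DESeq2 and limma. Hepatocyte markers moved with the preparation, since their sum was 57226 to 88898 CPM in FR Con but 27110 to 38854 CPM in FFPE Con, and 40346 to 75668 CPM in FR PB but 20598 to 34410 CPM in FFPE PB. Their part in these differences was not tested.

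With the L number as a term, Cyb5a remained lower in FFPE than in FR, at −0.73 in Con (edgeR adjusted p = 0.00529) and −0.92 in PB (0.000216). Ephx1 was at −0.79 in Con (edgeR adjusted p = 0.0555) and −0.80 in PB (0.0335), and Aldh1a1 was at −0.44 (0.309) and −0.46 (0.245). Aldh1a7 no longer passed, at −0.28 in Con (edgeR adjusted p = 0.636) and 0.04 in PB (0.947). In Con no L number held libraries of both FR and FFPE, so that this difference rests on how the PB libraries were spread over the numbers.

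In FR>FFPE, Cyb5a was at −0.29 relative to FR in Con (edgeR adjusted p = 0.0277) and −0.36 in PB (0.00452), and Ephx1 at −0.43 (0.0382) and −0.49 (0.0142). The other 5 genes did not pass, and 2 of 7 genes lower compares with 5.47% of all genes in Con and 6.99% in PB. Both calls in Con were close to the threshold. That of Cyb5a was lost without liver 21C (−0.18, edgeR adjusted p = 0.156) and without 90C (−0.30, 0.0514), and that of Ephx1 without 8A, 8C, 8D or 90C, with an edgeR adjusted p of up to 0.133. In Con both were lost with only the compared groups in the fit (edgeR adjusted p = 0.0599 and 0.0934) and with the L number as a term, at −0.29 for Cyb5a (edgeR adjusted p = 0.336) and −0.37 for Ephx1 (0.438). Cyb5a, Ephx1, Aldh1a1 and Aldh1a7 were nonetheless below FR in 12 of 12 livers, with mean ratios of 0.807, 0.729, 0.789 and 0.858. No gene was lower without overlap in Con (2.6% of all genes) and Cyb5a was in PB (3.34%).

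In FR>OH, Cyb5a was lower than in FR in both treatments, at −0.61 in Con (edgeR adjusted p = 1.34e-05) and −0.45 in PB (0.000960), and Aldh1a1 was lower in Con at −0.73 (0.000746) but in PB was at −0.36 (0.109). That is 2 of 7 genes in Con and 1 in PB, where 9.88% and 7.35% of all genes were lower. Levels lay apart for Aldh1a7 in Con (5.43% of all genes lower without overlap) and for none of the 7 in PB (3.37%). Por was at 0.22 in Con and 0.41 in PB, and was above FR in 11 of 12 livers with a mean ratio of 1.25 ± 0.15 (SD, n = 12), but with total reads as library size it was at −0.14 in Con and 0.13 in PB. With the mouse as a block Por passed the test as higher, at 0.21 in Con (edgeR adjusted p = 0.00534) and 0.42 in PB (1.03e-08).

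FFPE was also set directly against FR>FFPE, which separates fixing fresh tissue from fixing tissue that had been frozen. Only Cyb5a passed, at −0.40 in Con (edgeR adjusted p = 0.00968) and −0.54 in PB (0.000511), and 7.95% and 11.6% of all genes were lower there. The call in Con was lost without liver 8C (−0.35, edgeR adjusted p = 0.0731) and with the L number as a term (−0.44, 0.401). In PB its 6 FFPE libraries, at most 636 CPM, lay below all 6 FR>FFPE libraries, at least 771 CPM, as 4.09% of all genes did, while in Con no gene of the 7 lay apart (2.65% of all genes).

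The counts of 0 DEGs among the 7 genes in these 8 comparisons are edgeR's. Of all genes, 5.42% in Con and 7.83% in PB were DEGs between FR>FFPE and FR, 4.55% and 3.81% between FR>OH and FR, and 0.494% and 0.561% between FFPE and FR>FFPE. Under FFPE against FR in PB, DESeq2 called 2 of the 7 genes and limma 4, and in Con limma called 6 and DESeq2 0. Over all genes DESeq2 called 10.3% in Con and 13.0% in PB, and limma, on values scaled by the total of all reads, called 28.8% and 29.0%. At an unadjusted p under 0.05 edgeR had 4 genes in Con and 4 in PB for FFPE against FR, 2 and 3 for FR>FFPE, 4 and 1 for FR>OH, and 1 and 2 for FFPE against FR>FFPE. The shares of all genes at that level were 61.6% in Con and 64% in PB for FFPE against FR, 53% and 60.5% for FR>FFPE, 47.9% and 46.0% for FR>OH, and 26.9% and 28.7% for FFPE against FR>FFPE.

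The preparations share the 12 livers, and with the mouse as a block none of the calls was lost and others were added. Of the 6 genes other than Akr1b7, the genes lower then numbered 5 in Con and 4 in PB for FFPE against FR, where 16.2% and 18.1% of all genes were lower. They numbered 4 in each treatment for FR>FFPE (8.89% and 10.2% of all genes) and 4 in each for FR>OH (14.8% and 12.2%), and 5 and 4 for FFPE against FR>FFPE (15.4% and 21.1%). Aldh1a1 was at −0.32 in Con and −0.37 in PB for FR>FFPE against FR, and at −0.37 in PB for FR>OH, with edgeR adjusted p of 1.11e-06, 3.26e-08 and 5.59e-08. Aldh1a7 was at −0.27 and −0.18 for FR>FFPE and at −0.49 and −0.25 for FR>OH, with edgeR adjusted p of at most 0.000965. Ephx1 was at −0.36 and −0.19 for FR>OH, with edgeR adjusted p of at most 0.00122. Between FFPE and FR>FFPE, Aldh1a1 (−0.34 and −0.41), Aldh1a7 (−0.41 and −0.47) and Ephx1 (−0.23 and −0.20) passed in both treatments, with edgeR adjusted p of at most 0.00334, as did Por in Con (−0.22, 0.0191). Against FR, Por in FFPE Con was at −0.16 (edgeR adjusted p = 0.0497). Akr1b7 in PB was at −0.77 in FFPE against FR (edgeR adjusted p = 0.000466) and at −0.55 against FR>FFPE (0.0290). For Akr1b7 in Con no fold is given, since the 6 FFPE libraries held 0 counts against 9 in FR.

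**Figure D5:**
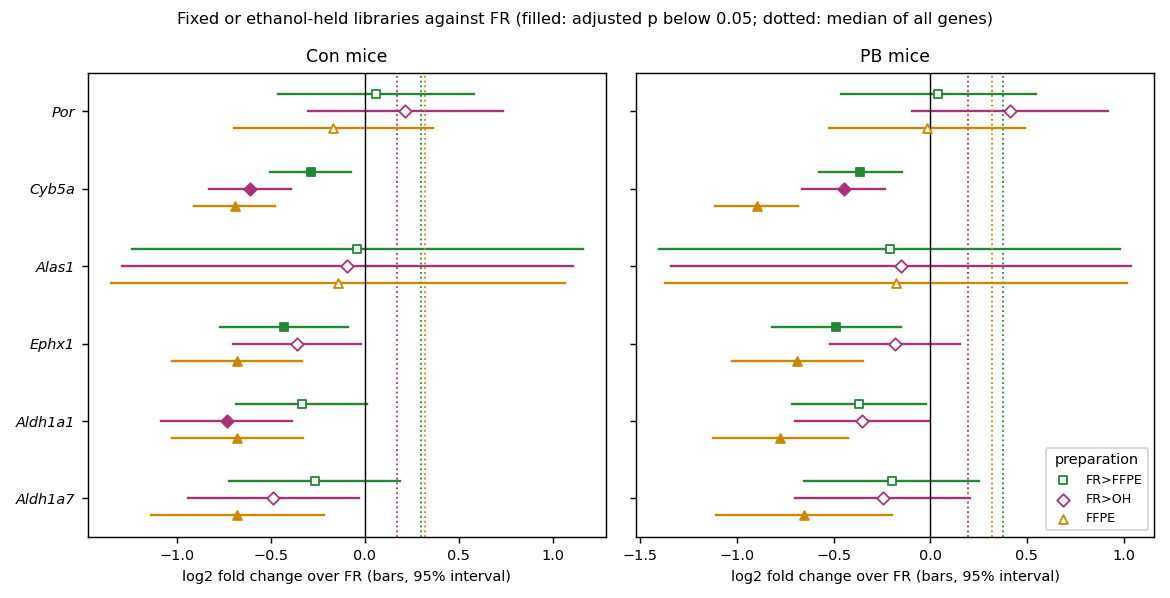
Log2 fold change of FR>FFPE, FR>OH and FFPE over FR in Con and PB livers for 6 genes, with 95% intervals from edgeR; filled points passed the adjusted p of 0.05 and dotted lines mark the median of all genes. Cyb5a is filled in each of its 6 comparisons, while Por and Alas1 are open in all of theirs.

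Whether a preparation changed the response to PB was tested as the difference of the PB effect from that in FR. None of the 7 genes, and none (0%) of all genes tested, passed the adjusted p for FFPE, FR>FFPE or FR>OH in edgeR, where 463, 288 and 305 genes had an unadjusted p under 0.05. For these 7 genes DESeq2 and limma also called 0. With the mouse as a block the PB effect on Aldh1a1 was 0.36 larger on the log2 scale in FR>OH than in FR (SE 0.076, edgeR adjusted p = 0.0113), and 37 of all genes tested passed. Without the block this difference was 0.38 with an SE of 0.25 (edgeR adjusted p = 1.0). In every Con liver Aldh1a1 was lower in FR>OH than in FR, at a mean ratio of 0.603 ± 0.048, and in PB livers at 0.777 ± 0.056 (SD, n = 6 each). For Cyb5a the ratio of FFPE to FR was 0.624 in Con and 0.538 in PB, a difference of −0.21 on the log2 scale with the block that did not pass (edgeR adjusted p = 0.443).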

How the data were processed

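The authors made stranded, rRNA-depleted libraries (TruSeq, paired 50-base reads), called bases with CASAVA 1.8.2, aligned with STAR 2.5.3a to GRCm38 and quantified RefSeq transcripts with the expectation-maximization step of Partek Flow. The deposited table holds these estimated counts, of which 92% were whole; they were rounded before testing. A second deposited table holds log2 CPM on the total of all reads and was used with limma as an alternative. Tables of the other 48 libraries of the series were not analysed here.

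Levels were expressed as CPM of the column total. Following the methods, genes with a geometric mean above 1 count (offset 1e-04 for zeros) were kept, and edgeR 4.0.16 (R 4.3.3) quasi-likelihood tests were fitted to the 8 group means of all 48 libraries with column totals as library sizes. Adjusted p-values are Benjamini-Hochberg over all 13370 genes. Ratios of Aldh1a7 to Aldh1a1 were tested by exact permutation (scipy 1.17.1). Akr1b7 ratios carry exact 95% intervals on pooled counts and a floor of 3 counts. Alternatives were TMM factors, total reads as library size, other filters, DESeq2 1.42.0, limma 3.58.1, the compared groups alone, the L number as a term, leave-one-out, and the mouse as a block. The mouse, named in every title, pairs the preparations: deviations from group means correlated at a median r of 0.703 (minimum 0.468) over 72 same-mouse pairs and −0.125 between mice, over 7953 genes. The edgeR fit of 8 group means was tried on simulated counts without a mouse effect. This was done for PB in FR, FFPE against FR in Con and the difference of the PB effect in FFPE. The alternatives were not tried in this way. Sequences came from RefSeq tables with Biopython 1.88, and motifs were searched on both strands.

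Genes and lists were chosen with earlier results of these data known. Named besides the 7 genes were Cyp2b10, list genes that were DEGs of PB in FR or of FFPE against FR in both treatments (at most 4 a list), and the 3 genes most correlated with each of the 7. Beyond these, Gm36961 and Gm15806 were named for shared sequence.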

Additional observations from a re-analysis of the deposited data

Results flagged for a closer look

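In a search for single libraries far from the other 5 of their group (Dixon's test at the 95% level), 7 of 56 groups of a gene were marked, where chance marks about 1 in 20. Liver 8A held 4 of them. Its Por level in Con was 81.9 CPM in FR against at most 48.4 in the other 5 livers, 69.7 in FFPE against at most 42.0, 84.3 in FR>FFPE against at most 50.9, and 96.5 in FR>OH against at most 56.9. The libraries are 4 preparations of 1 liver and not 4 independent marks.

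Liver 21C was marked for Ephx1 in Con, at 117 CPM in FR>FFPE against at most 67.1 in the others and at 110 CPM (109.8) in FR>OH against at most 73.1. It was marked for Akr1b7 in FR>FFPE Con as well, at 0.361 CPM against at most 0.114, which is a matter of 3 counts or fewer. The FR>FFPE library of 21C was also the shallowest of its group, with a total of 5534973 and 31.7% of reads on genes. The other FR>FFPE Con libraries had at least 8812962 and 35.9%.

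The PB effect on Aldh1a1 was larger in FR>OH than in FR by 0.36 on the log2 scale with the mouse as a block. It was the one difference between preparations in the response of the 7 genes that passed the adjusted p. In that fit 5 of the 6 genes other than Akr1b7 had an unadjusted edgeR p under 0.05, beside 8.35% of all genes. Their median difference was 0.19, so the shift was not particular to Aldh1a1. FR and FR>OH shared no L number, and the term could not be fitted here.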

How the results depend on the processing

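The number of the 7 genes that were DEGs for PB stayed within 1.5 times of 6 in every preparation under every alternative, and over leave-one-out fits it was 5 to 6 in FR, FFPE and FR>FFPE and 6 in FR>OH. These counts include Akr1b7, which passed the filter through its PB libraries alone. For the preparations the count was 0 under the design as fixed and 0 in every leave-one-out fit. For FFPE against FR in Con it became 4 by adjusted p alone, 5 with total reads, 1 with only the compared groups, 1 with the mouse as replicate block and 6 with limma, where the gene called under the block was Akr1b7, at 0 counts in FFPE Con. In PB it became 4 by adjusted p alone, 2 with TMM, 5 with total reads, 4 with limma and 2 with DESeq2. For FR>FFPE against FR it became 2 in Con and 2 in PB by adjusted p alone. For FR>OH against FR in Con it became 2 by adjusted p alone, 1 with total reads and 1 with limma, and in PB 1 by adjusted p alone. For FFPE against FR>FFPE in Con it became 1 by adjusted p alone and 1 with limma, and in PB 1 by adjusted p alone, 1 with total reads and 2 with limma. Aldh1a7 in FFPE against FR in PB went from −0.65 to 0.040 with the L number as a term. Other scalings change the library size, and the remaining causes were not tested. The leave-one-out difference in log2 ratio of Aldh1a7 to Aldh1a1 ran from −1.07 to −0.89 (FR), −0.92 to −0.75 (FFPE), −0.93 to −0.75 (FR>FFPE) and −1.21 to −1.04 (FR>OH).

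A replicate block could not be fitted for PB, since each mouse had 1 treatment, and the calls it changed between preparations are given with their values above; it changed no other call. Over all genes, DEGs for PB were 268 in FR but 118 with the L number as a term and 169 with limma, 257 in FFPE but 156 within 1 L number, 250 in FR>FFPE but 162 with limma, and 324 in FR>OH but 197 with the term and 134 within 1 L number. FFPE against FR gave 1540 higher and 233 lower in Con, but 105 and 3517 with total reads and 93 and 3764 with limma; in PB 1924 and 288 became 181 and 3547, and 162 and 3712. FR>FFPE against FR fell from 724 in Con to between 243 and 288 and from 1047 in PB to between 447 and 466 under TMM, total reads, limma and DESeq2, and FR>OH in PB from 510 to between 288 and 316. FFPE against FR>FFPE gave 66 in Con and 75 in PB, but 1080 and 1060 with total reads, 1310 and 1338 with limma, and 107 and 118 with the block; in Con also 128 with the term and 39 with only the compared groups, in PB 47 with DESeq2. The term could not be fitted for PB in FR>FFPE, FR>FFPE against FR in PB, FR>OH against FR, FFPE against FR>FFPE in PB, and the interactions with FR>FFPE and FR>OH. Akr1b7 in Con rests on 0 to 3 counts a library, which limits any fold.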

Other observations

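The 3 genes whose levels ran closest to each of the 7 were found over the 48 libraries, which share 12 livers and their treatment. Among 12299 genes with a mean of at least 1 CPM, Pearson's r of log2(CPM + 1) with Cyb5a was 0.977 for Ugt1a1, which conjugates bilirubin, 0.974 for Aldh1a1 and 0.970 for Pgrmc1, a heme-binding partner of P450 enzymes. With Ephx1 it was 0.979 for Ces2a, a carboxylesterase, 0.976 for Cyp2c54 and 0.976 for Cyp2a5, and with Aldh1a1 it was 0.976 for Cyp2c54, 0.975 for Cyp2c50 and 0.974 for Cyp3a11. With Por it was 0.948 for Fndc5, 0.942 for Cyp3a59 and 0.941 for Cyp2b10. After group means were taken out, the r of Por with Cyp2b10 was 0.292, while that of Cyb5a with Pgrmc1 was 0.918.

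Aldh1a7, Akr1b7 and Alas1 had other neighbours. With Aldh1a7 the r was 0.950 for Ugdh, which makes UDP-glucuronic acid, and 0.929 each for Nup205 and Gm3776, and with Akr1b7 it was 0.962 for Cdc20, a mitotic regulator, 0.962 for Gsta1, a glutathione transferase, and 0.959 for Ccl9, a chemokine. With Alas1 it was lower, at 0.769 for Zfp970, 0.764 for Pfkfb3, a glycolytic regulator, and 0.691 for Ube2s, and nearly the same after group means were taken out (0.799, 0.790 and 0.692 or 0.693).

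Among genes of the lobule's zones, Cyp1a2 of the pericentral list (1 of 7 a DEG) rose with PB in FR by 1.61 on the log2 scale (edgeR adjusted p = 3.28e-11), and Pck1 of the periportal list (1 of 7 a DEG), the gluconeogenic carboxykinase, fell by 1.37 (edgeR adjusted p = 9.13e-05). The lists as a whole had medians of −0.16 and −0.19 there, and by adjusted p 1 pericentral gene was higher and 1, Glul, was lower (−0.47, edgeR adjusted p = 0.00833), while no periportal gene was higher and Pck1 alone was lower. The 4 P450 genes used for the check of labels were DEGs higher in PB in every preparation.

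Between FFPE and FR, some list genes passed the fold limit in both treatments. Hpx, which binds free heme, was at −1.41 in Con and −1.34 in PB on the log2 scale. Ttr, a carrier of retinol-binding protein, was at −1.29 and −1.33, and Cyp3a11 at −1.34 and −1.15. Fdxr, the mitochondrial reductase of ferredoxin, was at 1.17 and 1.2 and Axin2, a pericentral gene, at 1.45 and 1.39. By adjusted p in Con, 44.4% of all genes were higher and 13.1% lower. Of the 16 genes tested in the heme list 3 were higher and 6 lower, of 12 for electron transfer 6 and 2, of 3 epoxide hydrolases 0 and 2, of 16 aldehyde dehydrogenases 2 and 4, of 25 for retinoid handling 1 and 7, and of 14 aldo-keto reductases 0 and 7.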
